A study of Mus musculus with 6 samples.

Results

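Genes of glutathione metabolism, of leukotriene and glutathione peptide breakdown and of antioxidant defence were followed in mesenchymal stem cells (MSCs) of Pcif1 conditional knockout mice and of floxed controls. The members were taken by gene symbol, in a set of families that was chosen with earlier results of these data known, so the shares given below are a description of this set. They are the glutathione transferases (Gst and Mgst), the γ-glutamyl transferases (Ggt), the membrane dipeptidases (Dpep), the glutathione peroxidases (Gpx), the peroxiredoxins (Prdx), the superoxide dismutases (Sod), catalase (Cat), the enzymes of glutathione synthesis and recycling (Gclc, Gclm, Gss and Gsr), the thioredoxin reductases (Txnrd), Hmox1, Nqo1 and Nfe2l2. The symbols matched 54 of the 20071 Ensembl IDs in the count table, under 53 symbols because Dpep2 stands under 2 IDs. Of these, 49 passed the expression filter and were tested. The 5 that did not pass were Ggt1, Gstm3, Gstp2, Gstp3 and the Dpep2 model ENSMUSG00000115067, each at or below 0.60 CPM in every library (CPM, here the counts relative to the library's total after TMM scaling in edgeR).

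Poly(A) RNA was sequenced from bone marrow MSCs of Pcif1fl/fl mice, labelled WT and called controls here, and of Prrx1-Cre;Pcif1fl/fl mice, labelled CKO, with 3 libraries of each after 7 days in osteogenic medium. Both groups carry the floxed Pcif1 allele on a C57BL/6J background, both were cultured in ascorbic acid, β-glycerophosphate and dexamethasone, and the MSCs came from the femurs of 6-week-old mice. Prrx1-Cre is active in limb mesenchyme and its descendants, so cells of other lineages that persist in a marrow culture keep Pcif1. The labels show 3 libraries per genotype where the design text speaks of duplicates, and nothing says that they came from separate mice or cultures, so p-values measure the spread between these libraries, which may be technical.

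Glutathione is a tripeptide of glutamate, cysteine and glycine that serves as the main soluble thiol of the cell. Transferases couple it to electrophiles, glutathione peroxidases use it to reduce peroxides, and γ-glutamyl transferases followed by dipeptidases take it, its conjugates and leukotriene C4 apart at the cell surface. On leukotrienes the transferase step gives leukotriene D4 and the dipeptidase step leukotriene E4. Many of the other genes here are textbook targets of NRF2, encoded by Nfe2l2, which binds the antioxidant response element. PCIF1 methylates the first transcribed base of a capped mRNA where that base is an adenosine, giving m6Am.

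The first transcribed base is therefore shown for the members that differed between the genotypes and have a start in the RefSeq promoter table (GRCm38.p6). Each line gives 15 bases before the annotated start, the first transcribed base in capitals and 14 bases after it, 5′ to 3′ on the gene's strand.
Dpep1 at chr8:123186220-123186249, + strand: tactgagggcttgcgTgcctttcggagacg
Gstt1 at chr10:75797717-75797746, - strand: ccatactgtctcactGcttgtcccgctctg
Gpx3 at chr11:54902839-54902868, + strand: cgttgccattggctaGgaagcccccgcctg
Cat at chr2:103485139-103485168, - strand: tgattggtggagcctGaagtcaccactcca
Gstm1, first start, at chr3:108017804-108017833, - strand: ccaaacacacaggtcAgtcctgctgaagcc
Gstm1, second start, at chr3:108017959-108017988, - strand: gagagggtgtggcctCtgccttccgcttta
Dpep3 at chr8:105979405-105979434, - strand: cgtccgttgcgcagcAgggtgactggaagc
Gsto1 at chr19:47854958-47854987, + strand: ggctcccggccaggaGgcgcggtctgggcg

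Ggt5, Gsta4 and Dpep2 have no entry in that table. Of the 53 symbols, 44 matched, with 61 annotated starts, and the first base was A at 20 of them (32.8%), against 29.5% of the 13658 starts of all genes tested and 34.4% of all 32851 starts in the table. The 61 include starts of members that were not tested. Of the members tested that have only starts with an A, 0 of 11 fell and 1 rose (Dpep3), where 117 of the 2601 such genes among all tested fell and 86 rose. Among the 24 with no such start, 4 fell (Dpep1, Gstt1, Gpx3 and Cat) and 1 rose (Gsto1), where 290 of 7050 such genes fell and 171 rose. Of the 5 with starts of both kinds 1 fell (Gstm1), where 46 of 1039 such genes fell and 36 rose. These counts depend on control replicate 3. Without that library 2 of the 11 members with only A starts fell (Gsta3 and Mgst1) and 1 rose (Dpep3), where 296 of 2634 such genes fell and 296 rose. Gstp1, Gstt3 and Sod1 then also fell among the 24 with no such start, which made 7 that fell, and Prdx1 rose beside Gsto1, where 699 of 7121 such genes fell and 748 rose. Gpx4 fell beside Gstm1 among the 5 with starts of both kinds, where 103 of 1049 such genes fell and 137 rose. Whether the members differ between these classes was not tested. An annotated start is not a measured one, and neither cap methylation nor start use was measured in these libraries.

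Genotypes were compared with edgeR's quasi-likelihood test over 13733 genes with Benjamini-Hochberg adjustment, and a gene is said here to have fallen or risen in CKO MSCs where its adjusted p was under 0.05. With a fold change of at least 2 as well, 3 of the 49 members fell, which were Dpep1, Gstt1 and Ggt5 (6.12%, against 2.5% of all genes tested), and 1 rose, Dpep3 (2.04%, against 1.03%). At any fold change, 7 fell (14.3%, against 4.51% of all genes tested) and 3 rose (6.12%, against 2.88%). The further members were Gpx3, Cat, Gstm1 and Gsta4 on the lower side and Dpep2 and Gsto1 on the higher side. Every CKO library was below every control library for 16 members (32.7%, against 15.7% of all genes) and above for 4 (8.16%, against 15%), and the groups overlapped for 29 (59.2%, against 69.2%). The median log2 fold change was -0.16 over the members and 0.0017 over all genes tested, and 30 of the 49 were fitted below 0 (61.2%, against 49.7%).

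The libraries held between 20258209 and 28227696 counts. Control replicate 3 stands apart: mitochondrial genes took 3.63% of its counts against 1.40% to 1.57% in the other 5 libraries, and its level differed by more than 0.5 on the log2 scale from the mean of the other control libraries in 38.8% of the members, against 28.4% of all genes tested. Without it, 14 of the 50 members tested fell and 5 rose at any fold change (28% and 10%), where 10.4% of all genes of that fit fell and 11.1% rose. Without any 1 of the 3 CKO libraries 4 members fell and 1 rose, where between 2.32% and 2.5% of all genes fell and at most 1.23% rose. Dpep1, Ggt5, Gstt1, Gpx3 and Dpep3 passed in all 13 alternative fits. Cat, Gstm1, Gsta4, Dpep2 and Gsto1 did not pass in any of the 3 fits that left out a CKO library, with adjusted p between 0.0776 and 0.159. Counts of Pcif1 itself were 39.3 to 42.8 CPM in controls and 37.8 to 39.7 CPM in CKO MSCs (log2 fold change -0.085, adjusted p = 0.645), and counts per gene do not show the loss of exons 5 to 7. Xist was at 232 to 443 CPM in controls and at 0.722 to 1.79 CPM in CKO MSCs, and the 4 Y-linked genes followed were counted in all 6 libraries and were lower in every control library, so the sex of the cells and the genotype cannot be told apart.

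**Figure D1:**
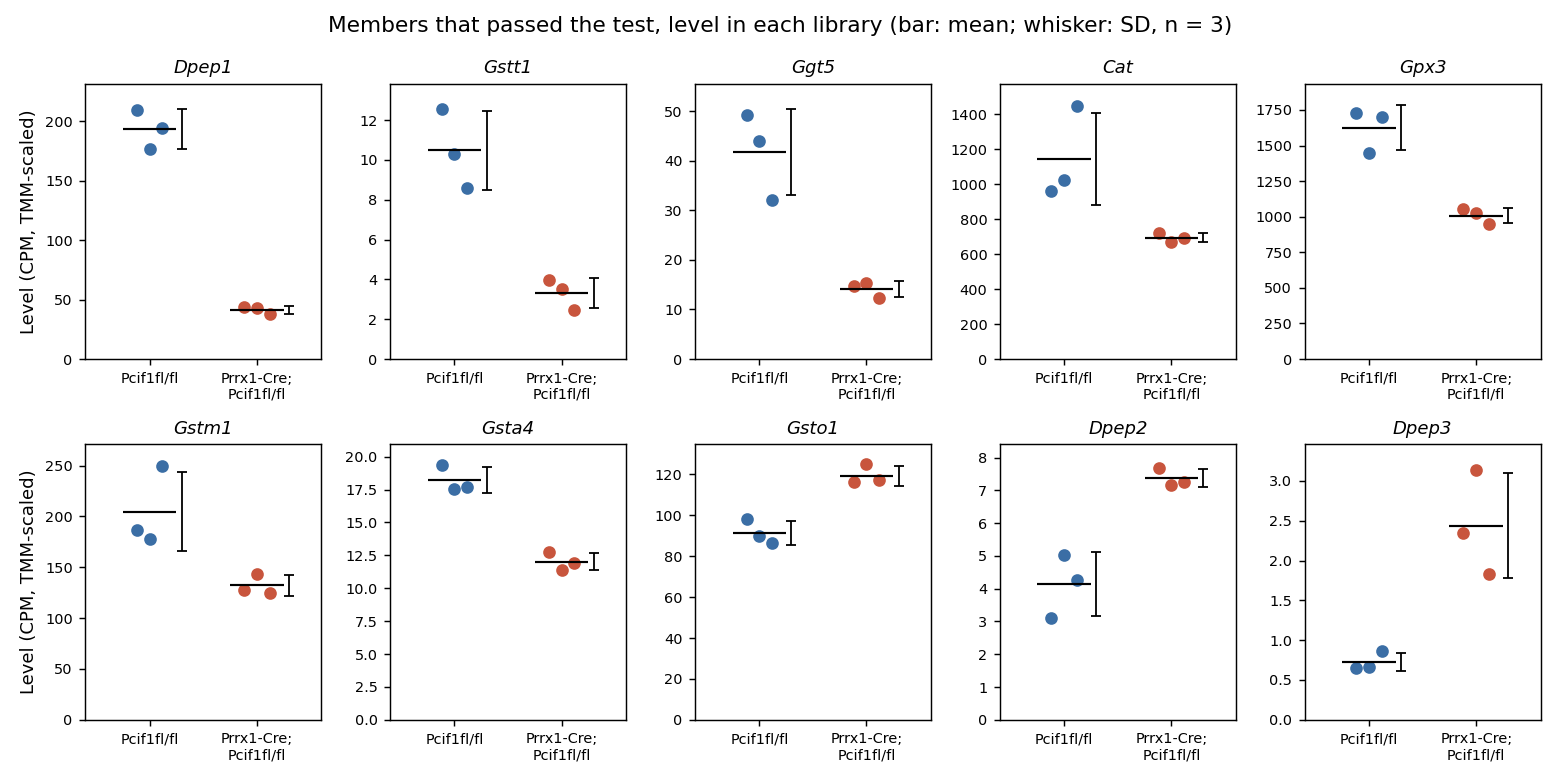
Level of each of the 10 members that passed the test, in TMM-scaled CPM from 0, with 1 point per library, a bar at the mean and a whisker for the SD (n = 3). Dpep1 sits at 177 to 209.6 CPM in controls and 37.6 to 43.4 CPM in CKO libraries, and in none of the 10 panels do the genotypes overlap.

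The enzymes that take glutathione and leukotriene C4 apart held the members with the largest fitted fall (Dpep1) and the largest fitted rise (Dpep3). DPEP1 is the membrane dipeptidase that cleaves cysteinyl-glycine and leukotriene D4. Dpep1 (ENSMUSG00000019278, chr8:123186242-123201812, + strand) was at 209.6, 177 and 195 CPM in control replicates 1 to 3 and at 43.4, 43.2 and 37.6 CPM in CKO replicates 1 to 3. The lowest control was far above the highest CKO library, and the log2 fold change was -2.22 (standard error, SE, 0.11, 95% interval -2.47 to -1.98, adjusted p = 5.23e-05). It ranged from -2.29 to -2.16 over the 13 alternative fits, and control replicate 3 lay 0.012 above the mean of the other control libraries on the log2 scale. None of its exonic bases overlap another annotated gene.

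GGT5 is a γ-glutamyl transferase that acts on leukotriene C4 and on glutathione. Ggt5 (ENSMUSG00000006344, chr10:75589340-75617200, + strand) was at 49.2, 44.0 and 32.1 CPM in controls and at 14.8, 15.4 and 12.3 CPM in CKO MSCs. It fell by 1.56 on the log2 scale (SE 0.18, adjusted p = 0.00126), and control replicate 3 was the lowest of the controls. Ggt7, a relative whose enzymatic role is less clear and which was named after its values were seen, was at 4.67, 2.79 and 3.01 CPM against 2.34, 1.64 and 2.69 CPM (log2 fold change -0.64, adjusted p = 0.234), and without control replicate 1 its log2 fold change was -0.38. Ggt1, the γ-glutamyl transferase of kidney and secretory epithelia, had at most 0.11 CPM in any library. GGT5 turns leukotriene C4 into leukotriene D4, which DPEP1 cleaves, and both genes fell. Bulk RNA does not show whether they fell in the same cells.

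The other dipeptidase genes went up from low levels. Dpep3, best known from testis, had 15, 18 and 24 counts in control replicates 1 to 3 and 52, 63 and 38 in CKO replicates 1 to 3, or 0.655, 0.661 and 0.861 CPM against 2.34, 3.14 and 1.83 CPM. It rose by 1.73 on the log2 scale (SE 0.30, adjusted p = 0.0101). The antisense gene Gm45752 covers 7.01% of its exonic sequence. Dpep2, a dipeptidase of leukocytes that also cleaves leukotriene D4, was at 3.10, 5.03 and 4.27 CPM against 7.70, 7.17 and 7.26 CPM under the ID ENSMUSG00000053687 (log2 fold change 0.83, standard error 0.19, adjusted p = 0.0386). Of its exonic bases 44.0% overlap the second Dpep2 model, Gm45752, Dus2 or Gm22972, so its reads may be shared, and it also failed the threshold without control replicate 1 (adjusted p = 0.0735). Both genes lie within 22911 bases on chr8, and Dus2, which reaches into the same stretch from the opposite strand, had a log2 fold change of 0.17 (adjusted p = 0.616).

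Dpep1 remained the most abundant dipeptidase gene in CKO MSCs. Per kilobase of exon, Dpep1 was at 77.9 CPM in controls and 16.7 CPM in CKO MSCs, Dpep2 at 0.973 and 1.74, and Dpep3 at 0.427 and 1.43, so that Dpep1 made up 98.0% of the summed dipeptidase level per kilobase in controls and 83.2% in CKO MSCs. Summed over the 7 members of both families, the level was 267, 229.7 and 235 CPM in controls and 70.8, 71.2 and 62.0 CPM in CKO MSCs.

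**Figure D2:**
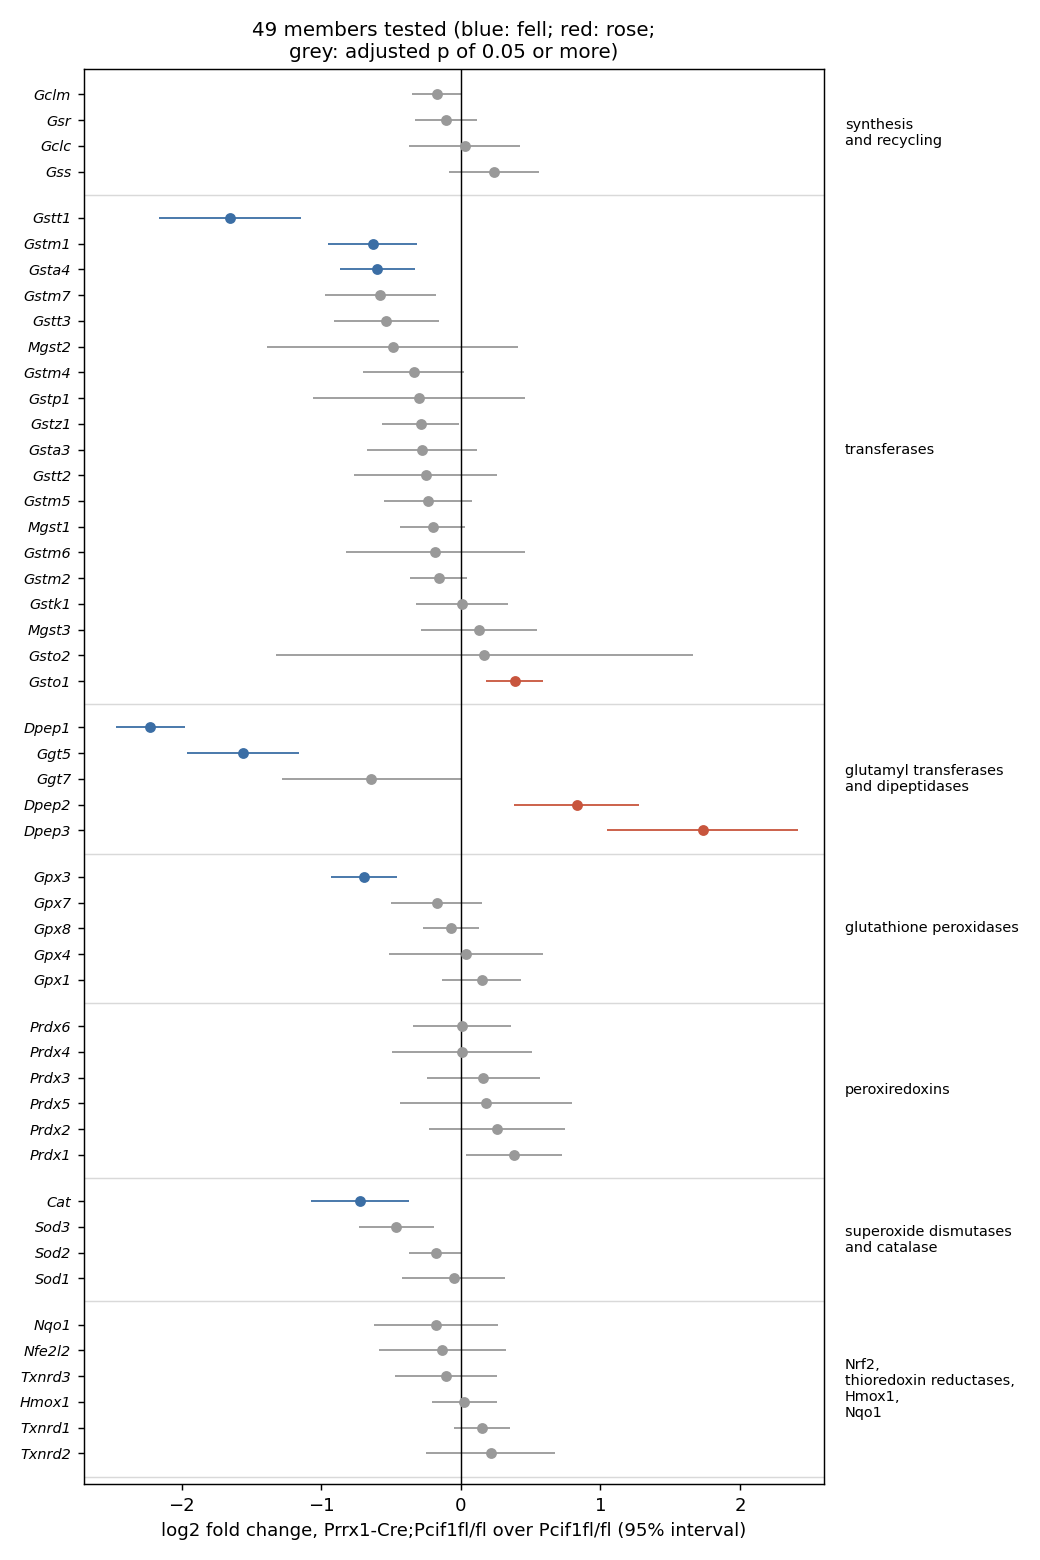
Log2 fold change of the 49 tested members with its 95% interval, Prrx1-Cre;Pcif1fl/fl over Pcif1fl/fl, grouped by role, with members that fell in blue, members that rose in red and the others in grey. Dpep1 (-2.22) and Dpep3 (1.73) mark the ends, and all 6 members of the NRF2, thioredoxin reductase, Hmox1 and Nqo1 group are grey.

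Among the 22 transferase genes, 19 were tested, of which 3 fell, 1 rose and 15 were fitted below 0, with a median log2 fold change of -0.28. Over all genes tested 4.51% fell, 2.88% rose and 49.7% were fitted below 0. Leaving out control replicate 3 added Gsta3, Gstp1, Gstt3 and Mgst1 to the transferases that fell, where 10.4% of all genes of that fit fell and 11.1% rose. GSTT1 is a theta-class enzyme that conjugates small halogenated compounds. Gstt1 (ENSMUSG00000001663, chr10:75783813-75798584, - strand) was at 12.5, 10.3 and 8.61 CPM in controls and at 3.96, 3.53 and 2.45 CPM in CKO MSCs. The groups were apart by more than the spread within either, and Gstt1 fell by 1.65 on the log2 scale (SE 0.22, adjusted p = 0.00311). The other theta-class genes, named after their values were seen, did not pass. Gstt3, whose end lies 2398 bases from Gstt1, was at 8.78, 8.20 and 6.99 CPM against 6.35, 5.13 and 5.05 CPM (log2 fold change -0.53, adjusted p = 0.0983), and it passed without control replicate 3 (-0.62, adjusted p = 0.0114). Of its exonic bases 13.6% overlap Gm20441 on the same strand. Gstt2 had a log2 fold change of -0.25 (adjusted p = 0.57).

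GSTM1 is a mu-class transferase of broad substrate range. Gstm1 (ENSMUSG00000058135, chr3:108012255-108017973, - strand) was at 187, 178 and 249 CPM in controls and 128, 143 and 125 CPM in CKO MSCs, with control replicate 3 the highest. It fell by 0.63 on the log2 scale (SE 0.14, adjusted p = 0.0304), and by 0.46 without that library. GSTA4 conjugates 4-hydroxynonenal, a product of lipid peroxidation. Gsta4 (chr9:78182774-78209349) was at 19.3, 17.6 and 17.7 CPM against 12.7, 11.4 and 11.9 CPM (log2 fold change -0.60, standard error 0.12, adjusted p = 0.0183). The omega-class gene Gsto1, whose enzyme reduces dehydroascorbate and arsenicals, moved the other way, from 98.0, 89.7 and 86.6 CPM to 116, 125 and 117 CPM (log2 fold change 0.39, standard error 0.09, adjusted p = 0.0366). Without control replicate 2 the adjusted p of Gsto1 was 0.12, without control replicates 1 and 2 in turn that of Gsta4 was 0.057 and 0.0584, and Gstm1 passed without each control library.

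The remaining 15 transferases had log2 fold changes from -0.58 to 0.17. Gstm7 was the lowest of them, at 4.32, 4.30 and 5.16 CPM against 3.33, 2.89 and 3.03 CPM (adjusted p = 0.0918). Per kilobase of exon Gstm1 led the Gst genes, with the Mgst genes left out, at 139 CPM in controls and 89.7 CPM in CKO MSCs, ahead of Gsto1 at 45.2 and 59.0 CPM, and it held 45.7% of their summed level in controls and 36.7% in CKO MSCs, while Gsto1 held 14.9% and 24.2%. The pi-class gene Gstp1 varied most within a genotype among the abundant transferases: it was at 53.1, 38.5 and 17.5 CPM in control replicates 1 to 3, and at 33.2, 27.5 and 27.8 CPM in CKO MSCs (log2 fold change -0.30, 95% interval -1.06 to 0.46). Reads of Gstp1, Gstp2 and Gstp3, and of the closely related Gstm genes, may be shared between paralogs.

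Several members are neighbours. The 7 Gstm genes lie within 149074 bases at chr3:107895821-108044894, and the 6 that were tested all had log2 fold changes below 0, from -0.63 (Gstm1) to -0.16 (Gstm2), of which 1 passed. Ggt1, Ggt5 and the 3 theta-class genes share 275821 bases at chr10:75561604-75837424. In that stretch Ggt5 and Gstt1, 166612 bases apart, both fell, as did Susd2 between them (log2 fold change -3.42, adjusted p = 8.40e-05), while Cabin1 (-0.11, adjusted p = 0.63) and Ddt (-0.22, adjusted p = 0.672), which also lie between them, did not pass.

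GPX3, the peroxidase that is secreted into plasma and extracellular fluid, was the 1 glutathione peroxidase of 5 to pass. Gpx3 (ENSMUSG00000018339, chr11:54902453-54910377, + strand) was at 1731, 1446 and 1703 CPM in controls and at 1051, 1025 and 948 CPM in CKO MSCs. Every CKO library was below the lowest control, and the log2 fold change was -0.69 (standard error 0.10, 95% interval -0.93 to -0.45, adjusted p = 0.00533), between -0.77 and -0.64 over the alternatives. Per kilobase it was the most abundant of all members in both genotypes, at 897 CPM in controls and 556 CPM in CKO MSCs, and its share of the summed glutathione peroxidase level was 73.3% and 62.3%. The cytosolic Gpx1, the phospholipid hydroperoxidase gene Gpx4 and the endoplasmic reticulum members Gpx7 and Gpx8 had log2 fold changes of 0.15, 0.035, -0.17 and -0.071, with overlapping groups. Gpx4 was at 252, 218 and 117 CPM in control replicates 1 to 3 and between 187 and 209 CPM in CKO MSCs, and without control replicate 3 it counted among the members that fell.

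Catalase, the peroxisomal enzyme that splits hydrogen peroxide, was at 959, 1024 and 1446 CPM in controls and 723, 669 and 690 CPM in CKO MSCs (Cat, ENSMUSG00000027187, chr2:103453849-103485160, - strand). It fell by 0.72 on the log2 scale (SE 0.15, adjusted p = 0.0267), and by 0.51 without control replicate 3, the highest library (adjusted p = 1.89e-05). Without control replicate 2 the adjusted p was 0.0515. The secreted dismutase gene Sod3, named after its values were seen, was at 269.9, 232 and 289.9 CPM against 205, 170.2 and 200.2 CPM (log2 fold change -0.46, adjusted p = 0.0509) and passed with DESeq2 (adjusted p = 0.0146). The mitochondrial Sod2 (-0.18) and the cytosolic Sod1 (-0.050) did not pass, although every CKO library was below every control library for Sod2. All 4 members of this group were fitted below 0, with a median of -0.32, and 1 of 4 passed. Over all genes tested 49.7% were fitted below 0 and 4.51% fell. Sod1 and Sod3 fell beside Cat without control replicate 3, where 10.4% of all genes of that fit fell and 11.1% rose.

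The peroxiredoxins, thiol peroxidases most of which are kept reduced by thioredoxin, gave no call: 0 of 6 fell and 0 rose, where 4.51% of all genes tested fell and 2.88% rose. Their log2 fold changes ran from 0.0078 (Prdx6) to 0.38 (Prdx1). Prdx1, the most abundant of them per kilobase at 290 CPM in controls and 377 CPM in CKO MSCs, was at 969, 1005 and 671 CPM against 1181, 1135 and 1128 CPM. The genotypes did not overlap, but the spread within controls was wide (95% interval 0.038 to 0.72, adjusted p = 0.187), and without control replicate 3 the log2 fold change was 0.22 (adjusted p = 0.0131). In that library all 6 peroxiredoxins were lower than the mean of the other controls, by 0.56 (Prdx1) to 1.17 (Prdx5) on the log2 scale. The summed level of the 6 genes was 1585, 1564 and 1000 CPM in control replicates 1 to 3 and 1740, 1679 and 1671 CPM in CKO MSCs.

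**Figure D3:**
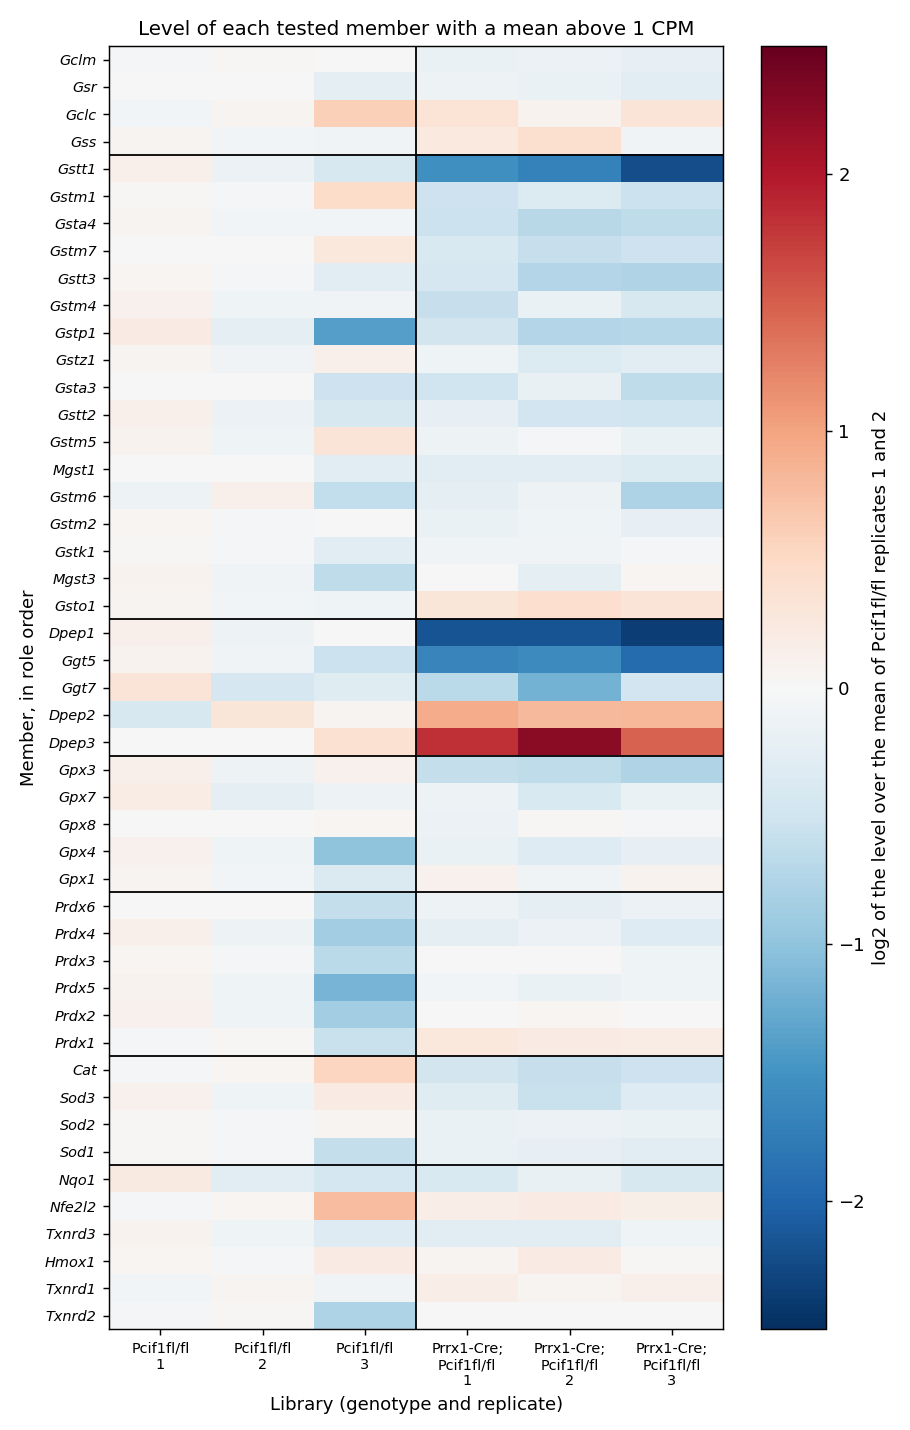
Level of each tested member with a mean above 1 CPM in each library, as the log2 of its ratio to the mean of Pcif1fl/fl replicates 1 and 2, with black lines between roles and between genotypes. The Dpep1, Ggt5 and Gstt1 rows are blue in all 3 Prrx1-Cre;Pcif1fl/fl libraries, and Pcif1fl/fl replicate 3 is blue in all 6 Prdx rows.

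Glutathione synthesis and the NRF2 group gave no member that passed, so 0 of 10 genes of these roles fell and 0 rose. Over all genes tested 4.51% fell and 2.88% rose, and at these shares any 10 genes would hold few calls. For Gclm, the modifier subunit of glutamate-cysteine ligase, the levels were 428, 447 and 436 CPM in controls and 388, 393 and 382 CPM in CKO MSCs. The groups did not overlap, and the log2 fold change was -0.17 (95% interval -0.35 to 0.0087, adjusted p = 0.259). The catalytic subunit gene Gclc was at 134, 148 and 214 CPM against 178, 151 and 177 CPM (log2 fold change 0.027, 95% interval -0.37 to 0.42), and without control replicate 3 it was 0.26 and passed (adjusted p = 0.035). Gss and Gsr, for the last step of synthesis and for the reduction of oxidized glutathione, had log2 fold changes of 0.24 and -0.11.

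Nfe2l2, which encodes NRF2, was at 185, 198 and 326 CPM in controls and 215, 221 and 211 CPM in CKO MSCs, where control replicate 3 set the spread (log2 fold change -0.13, 95% interval -0.59 to 0.32, adjusted p = 0.745, and 0.17 without that library). Hmox1, the heme oxygenase gene, was abundant and overlapped between genotypes, at 736, 691 and 826 CPM against 744, 819 and 730.3 CPM (log2 fold change 0.026, 95% interval -0.21 to 0.26, adjusted p = 0.911). Nqo1, a quinone reductase, was at 11.2, 7.94 and 7.06 CPM against 7.38, 8.41 and 7.26 CPM (log2 fold change -0.18, 95% interval -0.62 to 0.26). Txnrd1, the cytosolic thioredoxin reductase, was at 301, 332 and 297 CPM against 355, 331 and 346 CPM (log2 fold change 0.15, 95% interval -0.05 to 0.35). The intervals of Hmox1 and Txnrd1 leave room for changes up to 0.26 and 0.35 on the log2 scale, and those of Nfe2l2, Nqo1 and Gclc are wider.

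The promoters of these genes are where the core of the antioxidant response element would lie, searched here as the letters TGACNNNGC on both strands from 250 bases before to 50 after each RefSeq start. Matches are shown for 4 genes whose promoters NRF2 or oxidants are known to act on, 5′ to 3′ on the gene's strand with the 9 matched bases in capitals. In Gclm, Prdx1 and Txnrd1 the match is on the opposite strand and its reverse complement is seen, and the other Txnrd1 starts have no match.
Gclm, 134 bases before the start, at chr3:122245414-122245440: ctcccgggcGCACCGTCAactctcacg
Prdx1, 133 bases before the start, at chr4:116685457-116685483: agggaaagcGCTGAGTCAtcccccgta
Txnrd1, 92 bases before 1 of its 3 annotated starts, at chr10:82859105-82859131: tggatttttGCTTTGTCAttctgacac
Nfe2l2, 240 bases before the start, at chr2:75704886-75704912: cagcccaccTGACTCCGCcatgccccg

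Of the 61 member starts, 12 held the core (19.7%), against 14.2% of the starts of all genes tested and 12.4% of all 32851 starts in the table. Several of these 12 are starts of Ggt1, which was not tested and had at most 0.11 CPM in any library. The share over tested members alone is not given, so the 19.7% is not like for like with the 14.2%. The 9 tested members with the core in a window had a median log2 fold change of -0.17, and 0 of them fell or rose, where 72 of all 1812 genes tested with the core fell and 57 rose. Without control replicate 3, 3 of these 9 fell (Gsta3, Mgst1 and Sod1) and 1 rose (Prdx1), where 171 of 1836 genes with the core fell and 241 rose. The 31 without the core had a median of -0.16, with 5 that fell and 2 that rose, where 381 of all 8878 such genes fell and 236 rose. Without control replicate 3, 8 of these 31 fell and 2 rose, where 927 of 8968 such genes fell and 940 rose. A match of these letters is not a binding site. Hmox1 has no entry in the table, and the window of Nqo1 holds no match.

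The pathway around the members was read from lists written by hand, in which 2 of 86 genes tested fell and 2 rose, where 4.51% of all genes tested fell and 2.88% rose. These counts depend on the fit. With DESeq2 6 fell and 7 rose, where 4.14% of all genes fell and 2.95% rose. Without control replicate 3, 14 fell and 15 rose, where 10.4% of all genes fell and 11.1% rose. In the list of NRF2 regulators and further targets, 1 of 24 fell, G6pdx, which encodes the enzyme that makes NADPH at the entry to the pentose phosphate pathway. G6pdx was at 295, 285 and 331 CPM in controls and 243, 224 and 226 CPM in CKO MSCs (log2 fold change -0.39, adjusted p = 0.041), and it did not pass without any 1 library other than control replicate 3. For cysteine supply and glutathione breakdown, 1 of 18 rose: Chac1, a cytosolic enzyme that degrades glutathione and a target of the integrated stress response, went from 1.75, 2.46 and 1.18 CPM to 6.35, 4.48 and 7.12 CPM (log2 fold change 1.73, standard error 0.29, adjusted p = 0.0095). Chac1 did not pass without CKO replicate 1 (adjusted p = 0.0505) or CKO replicate 3 (adjusted p = 0.0507). The cystine transporter gene Slc7a11 overlapped between genotypes at 28.6 to 50.1 CPM and 31.5 to 52.5 CPM.

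Of 12 genes for leukotriene synthesis, export and receptors, 0 passed, where 4.51% of all genes tested fell and 2.88% rose. Alox5, Alox5ap and Lta4h, which make leukotriene A4 and B4, had log2 fold changes of -0.21, 0.0009 and 0.051, and Ltc4s, the synthase of leukotriene C4, had one of -0.46 (adjusted p = 0.268), which passed without control replicate 3 (-0.58, adjusted p = 0.0272). Leukotriene C4 export is the task of Abcc1, whose log2 fold change was 0.080. Ggt5 and Dpep1, which act after its release, fell, and whether their changes differ from those of the genes that make and export it was not tested.

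Metallothionein 1, a cysteine-rich metal-binding protein, was the 1 gene of 7 to rise in the metallothionein and selenoprotein supply list: Mt1 went from 80.2, 73.1 and 107 CPM to 154, 173 and 145 CPM (log2 fold change 0.86, adjusted p = 0.0104), and it did not pass without CKO replicate 2 (adjusted p = 0.0576). Selenop, the selenium carrier of plasma, was lower in every CKO library without passing, at 3137 to 5148 CPM in controls and 2103 to 2713 CPM in CKO MSCs (log2 fold change -0.70, adjusted p = 0.0799). Among 10 oxidant producers 1 fell, the mitochondrial amine oxidase gene Maob, at 46.6, 45.2 and 65.2 CPM in controls and 9.50, 5.53 and 7.94 CPM in CKO MSCs (log2 fold change -2.77, adjusted p = 0.000281). Of 15 thioredoxins, glutaredoxins, sestrins and methionine sulfoxide reductases 0 passed, with a median of 0.15. These counts too stand beside 4.51% of all genes tested that fell and 2.88% that rose.

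**Figure D4:**
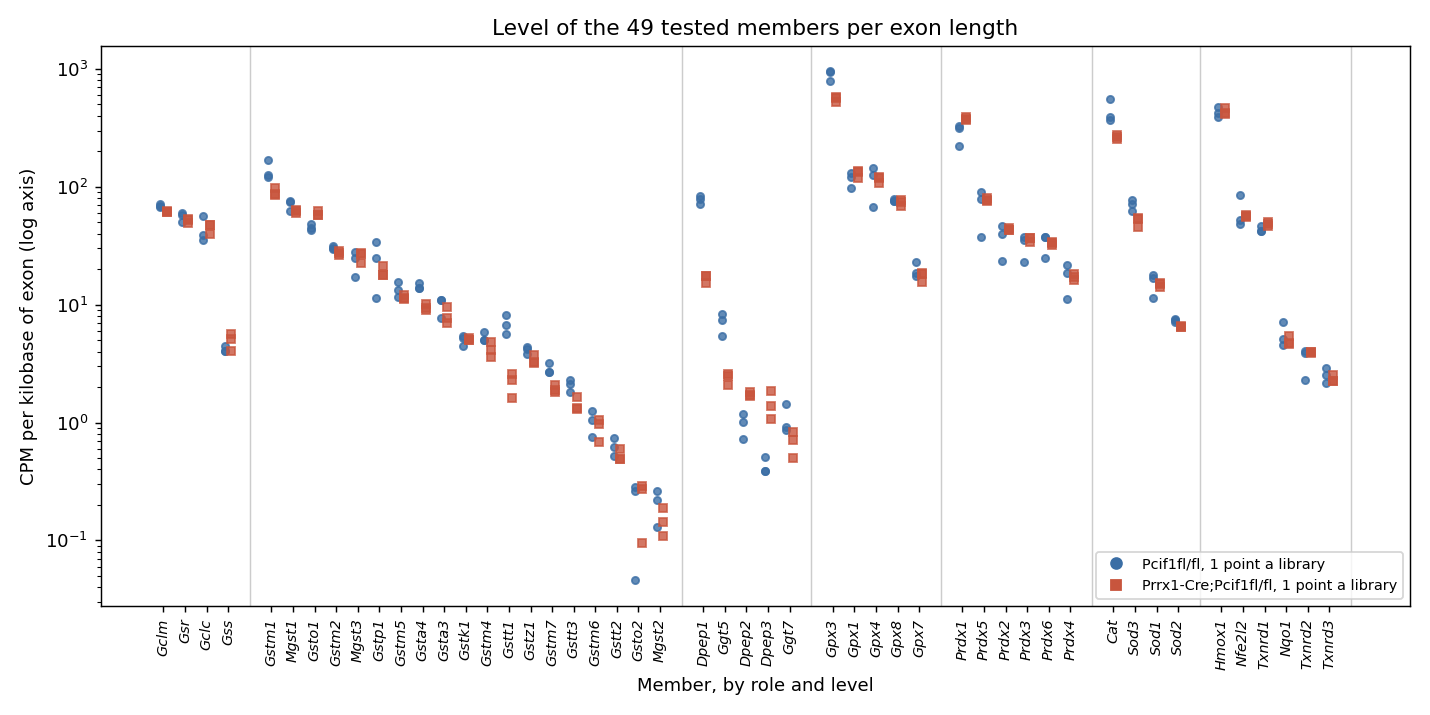
Level of the 49 tested members in CPM per kilobase of exon on a log axis, by role and in falling order, with 1 blue circle per Pcif1fl/fl library and 1 red square per Prrx1-Cre;Pcif1fl/fl library. Gpx3 leads at a mean of 897 CPM per kilobase in controls and 556 in CKO libraries, and Dpep1 is the only dipeptidase or γ-glutamyl transferase above 10 in either genotype.

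The cultures held cells of other types, and in bulk RNA fewer cells of a type cannot be told apart from less RNA per cell. The stromal marker Prrx1 was at 211 to 283 CPM in controls and 276 to 283 CPM in CKO MSCs. All 15 macrophage markers listed were present in every library, with a summed level of 31790 to 35370 CPM in controls and 32900 to 36070 CPM in CKO MSCs, and 1 of the 15 rose (Fcgr1). Most of that sum is Lyz2, the lysozyme gene, at 21980 to 26230 CPM. The 10 stromal markers listed summed to less, 8047 to 10490 CPM in controls and 13190 to 14050 CPM in CKO MSCs. Adgre1, Cd14 and Itgam did not pass but lay higher in every CKO library than in any control library (log2 fold changes 0.24, 0.67 and 0.45, adjusted p = 0.398, 0.0717 and 0.0645), and Csf1r lay lower in every one (-0.26, adjusted p = 0.141). Macrophages are known to express Hmox1 and Dpep2, and the level of a member here is a sum over cell types. Summed neutrophil markers and summed erythroid markers were each at most 2.45 CPM in any library, and 1 of the 2 neutrophil markers tested rose (S100a8, from at most 0.611 CPM in controls to between 1.11 and 1.39 CPM in CKO MSCs). Of 10 endothelial markers 0 passed.

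Adipocyte markers moved with genotype in part. Of 8 tested, 4 fell (Adipoq, Plin1, Cidec and Pparg), with Adipoq at 53.8, 42.9 and 44.3 CPM in controls and 1.49, 0.697 and 0.289 CPM in CKO MSCs, and Plin1 at 0 counts in all 3 CKO libraries. Fabp4 went the other way without passing, and was higher in every CKO library (log2 fold change 0.46, adjusted p = 0.0545). Cd36, Lpl and Cebpa overlapped between genotypes (log2 fold changes 0.00, 0.23 and -0.19). The summed level of the list, which is carried by Cd36, Lpl and Cebpa, ranged from 1203 to 1303 CPM in controls and from 1114 to 1368 CPM in CKO MSCs. Of 7 osteoblast markers tested, 3 fell (Alpl, Ibsp and Sp7), and Bglap had at most 5 counts in any library. Among the 10 stromal markers 1 fell (Pdgfra) and 5 rose (Col1a1, Col1a2, Dcn, Lum and Thy1). The part of these cells in the changes of Dpep1, Ggt5, Gstt1, Gpx3 and Maob was not tested.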

How the data were processed

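Counts of reads per gene were deposited by the authors without normalization, 1 column for each of 6 libraries. HISAT2 was the authors' aligner, with mm10 as the reference. How reads were assigned to genes, with which tool, gene models and strand setting, is not given in the sources used here. Of 20163 rows, 92 repeat an ID, so 20071 were used. In R 4.3.3, edgeR 4.0.16 (filterByExpr, TMM, glmQLFit and glmQLFTest) compared the genotypes with no covariate over 13733 genes, with Benjamini-Hochberg adjustment at 0.05. Intervals cover 95% and, like the standard errors, the spread between libraries. Gene positions and exonic lengths come from GENCODE M21 (GRCm38, that is, mm10), and starts from RefSeq (GRCm38.p6). Alternatives were DESeq2 1.42.0, limma-voom (limma 3.58.1), RLE or total-count scaling, no filter or one at a mean of 10 counts, a replicate block, and leaving out each library. Fits were checked on simulated counts.

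The members, the companion lists and the marker lists were chosen with earlier results of these data known. Named members are all that passed, Dpep1 and Gstt1, the most abundant per kilobase of each of 7 roles, and Nfe2l2, Gclc, Gclm, Hmox1, Nqo1 and Txnrd1. Others are said where named, and G6pdx, Chac1, Mt1 and Maob because they passed. Slc7a11, Selenop and the genes of leukotriene synthesis were chosen after their values were seen, as were Gstt2, Gstm7, Gstp1, the glutathione peroxidases, dismutases, Gss, Gsr and neighbouring genes.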

Additional observations from a re-analysis of the deposited data

How the results depend on the processing

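At a fold change of at least 2, 3 members fell and 1 rose in each of the 13 alternatives, and these were Dpep1, Ggt5, Gstt1 and Dpep3 in each. At any fold change, DESeq2, no filter and total counts added Sod3 to the 7 that fell, and RLE size factors, limma-voom and a mean of at least 10 counts gave the 7 and 3 of the main analysis. Leaving out 1 library gave between 4 and 14 members that fell and between 1 and 5 that rose. Over the companion lists, for which the alternatives were chosen after seeing the data, 2 fell and 2 rose, with DESeq2 6 fell and 7 rose, and leaving out 1 library gave between 1 and 14 that fell and between 1 and 15 that rose. The 14 and 15 came without control replicate 3, where calls rose over the whole series. Of all genes, 4.51% fell and 2.88% rose in the main fit, 4.14% and 2.95% with DESeq2, and 10.4% and 11.1% without that library.

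Replicate numbers did not pair the samples: deviations from the group means correlated at 0.055, -0.045 and -0.013 between same-numbered libraries. With the replicate number as a block, 7 members fell (Sod3 passed and Gstm1 did not) and 1 rose, 1 companion gene fell, and Dpep2 (adjusted p = 0.0644), Gstm1 (0.0546), Gsto1 (0.0963) and G6pdx (0.10) did not pass. In that fit 3.66% of all genes fell and 1.94% rose.

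Log2 fold changes near 0 turned direction when a library was left out. Over these fits Gclc ran from -0.10 to 0.26, Nfe2l2 from -0.28 to 0.17, Nqo1 from -0.31 to 0.037 and Hmox1 from -0.030 to 0.10. Gclc was -0.10 and -0.045 without control replicates 1 and 2 and -0.0084 and -0.0069 without CKO replicates 1 and 3, Hmox1 was -0.030 without control replicate 2 and -0.025 without CKO replicate 2, Nfe2l2 was 0.17 without control replicate 3, and Nqo1 was 0.037 without control replicate 1. The cause of these changes was not tested. Scaling moved the median of all genes by at most 0.0225 on the log2 scale. Dpep3, at 15 to 63 counts a library, is the called member with the least depth.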
